A study of Mus musculus with 8 samples.

Results

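The nuclear genes of mitochondrial complexes II to V were described in mouse 2-cell embryos cultured with 6 µM triclocarban (TCC), an antibacterial compound of soaps, or with its solvent DMSO. The members are the 61 protein-coding nuclear genes, of 37310 genes in the table, whose symbol begins with Sdha to Sdhd, Uqcr, Cox and a digit, or Atp5, together with Cyc1. They comprise 8 genes of complex II, 9 of complex III, 27 of complex IV and 17 of complex V, and include assembly factors and tissue forms as well as subunits. The TCC group held 4 libraries and the control group 4 libraries, all of polyadenylated RNA from fertilized eggs grown in the same medium (G1). The treatment text also lists cultures at 2 and 4 µM; the TCC libraries are taken as 6 µM, the dose their labels give. Strain, age of the donors, hour of collection and number of embryos per library are not given in the labels used here. Whether replicate libraries stem from different animals or cultures is not stated, and the p-values below cover the spread among libraries, which may be technical only.

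These complexes are the later steps of oxidative phosphorylation in the inner mitochondrial membrane. Complex II (succinate dehydrogenase) passes electrons from succinate to ubiquinone and is also an enzyme of the citric acid cycle, complex III passes them on to cytochrome c, complex IV (cytochrome c oxidase) passes them to oxygen, and complex V (ATP synthase) uses the proton gradient to make ATP. All subunits of complex II are encoded in the nucleus, whereas the other complexes also hold subunits encoded in mitochondrial DNA. The early mouse embryo inherits its mitochondria from the oocyte and draws on pyruvate and oxidative phosphorylation before it turns to glucose.

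Values were FPKM (fragments per kilobase, relative to all mapped fragments), so each is a share of a library's RNA and not an amount per embryo. In these bulk samples, fewer cells of a type and less RNA per cell cannot be told apart. The FPKM summed to 477882 to 563651 in TCC libraries and 533941 to 605986 in controls, and the number of fragments behind a value is not given in the table. Members took 0.607 to 0.833% of that sum in TCC libraries and 0.760 to 0.842% in controls, and mitochondrially encoded genes 11.1 to 17.6% in TCC libraries and 16.6 to 24.3% in controls. The controls lay in pairs, with libraries 1 and 2 apart from 3 and 4, and TCC library 2 was low for many members. Of the markers of the 2-cell embryo, 6 of 7 were in the table and their summed FPKM was 295 to 761 in TCC libraries and 564 to 773 in controls. That sum holds opposite changes, with 1 marker higher (Zscan4c) and 2 lower (Tdpoz4 and Zfp352). Oocyte-derived markers summed to 7081 to 10579 FPKM in TCC libraries and 2573 to 6090 in controls, with 5 of 8 higher and 1 lower. Markers of cumulus and granulosa cells summed to 0.751 to 1.48 FPKM with TCC and 2.95 to 6.60 in controls (9 markers, Amh at 0 in every library). Most of this difference came from Tnfaip6, the only 1 past the filter, at 0.230 to 0.494 FPKM with TCC and 1.53 to 5.01 in controls. Those of fibroblasts summed to at most 0.212 FPKM with TCC and 0.493 in controls (3 markers, Col3a1 at 0). Those of sperm, nearly all Prm2, summed to 6.87 to 9.32 FPKM with TCC and 1.12 to 5.13 in controls (4 markers). Those of blood, nearly all Hba-a1, summed to 7.01 to 27.0 FPKM with TCC and 37.8 to 68.2 in controls (3 markers, Hbb-bs at 0). The part of these markers in the results below was not tested.

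The members did not move together. Of the 61 genes, 58 passed the filter of at least 1 FPKM in at least 4 libraries, and 11 of these were higher and 19 lower with TCC, while 28 did not pass the threshold (limma on log2(FPKM + 1), Benjamini-Hochberg adjusted p under 0.05). Over all 12941 genes tested, 11.3% were higher and 30.8% lower, together 42.1%. The members' share of lower genes, 32.8%, was near that background, and their share of higher genes, 19.0%, was above it, with 5 of the 11 in complex II. All TCC libraries lay above all controls for 10 members and below them for 18, where 10.2% and 30% of all tested genes did so. The median log2 change was -0.35 over the tested members and -0.19 over all tested genes. Changes are differences on the log2(FPKM + 1) scale throughout, which understates those of genes with low values. The balance of the calls depended on how libraries were scaled: after median-of-ratios scaling 16 members were higher and 17 lower, and after quantile normalization 15 and 18. Over all 12941 genes, 2637 were higher and 3187 lower with median-of-ratios, and 2915 and 2847 with quantiles. With quantiles the members' share of higher genes was thus nearer to that of all genes than as deposited. Members called higher after scaling but not as deposited were Cox5a, Cox6c, Cox10, Cox18 and Atp5l with median-of-ratios, and Sdhb, Uqcrb, Cox18 and Atp5l with quantiles. Cox7a2 was called lower with quantiles but not as deposited. Of the lower members, Atp5h lost its call with either scaling, Atp5c1 with median-of-ratios and Cox4i2 with quantiles. These scalings moved the median of all tested genes to 0.06 and 0.14, and that of the members to -0.05 and -0.12. No called member changed sign under either scaling.

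The complexes differed in their counts. Complex II had 5 members higher and 0 lower of 8 tested, complex III had 2 and 4 of 9, complex IV had 2 and 9 of 24, and complex V had 2 and 6 of 17. These shares were 62.5% and 0% in complex II, 22.2% and 44.4% in III, 8.33% and 37.5% in IV, and 11.8% and 35.3% in V. Over all tested genes they were 11.3% and 30.8%, so complexes IV and V were near the background. At an unadjusted p under 0.05, complex II also had 0 lower members by limma. The median log2 change was 1.22 in complex II, -0.71 in complex III, -0.39 in complex IV and -0.42 in complex V, beside -0.19 over all tested genes. These are counts and medians over genes chosen with results in view, and no test was made between the complexes. Single libraries moved some of these values: without TCC library 2 the median of all members was -0.06 and 5 complex IV members were higher. Without TCC library 1, 3 or 4 there was 1 higher member in complex III, and without any 1 of the TCC libraries, control 3 or control 4 there was 1 in complex V. After median-of-ratios scaling 6 complex IV members were higher and 9 lower, and 3 complex V members were higher and 4 lower. With that scaling 2637 of all 12941 genes were higher and 3187 lower. Among the 39 core and accessory subunits of all 4 complexes (without tissue forms), 7 were higher and 13 lower. Of 13 assembly factors, 12 were tested, with 2 higher and 3 lower. In the plot of changes by complex, complex II is the group whose points lie mostly to the right of 0.

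**Figure D1:**
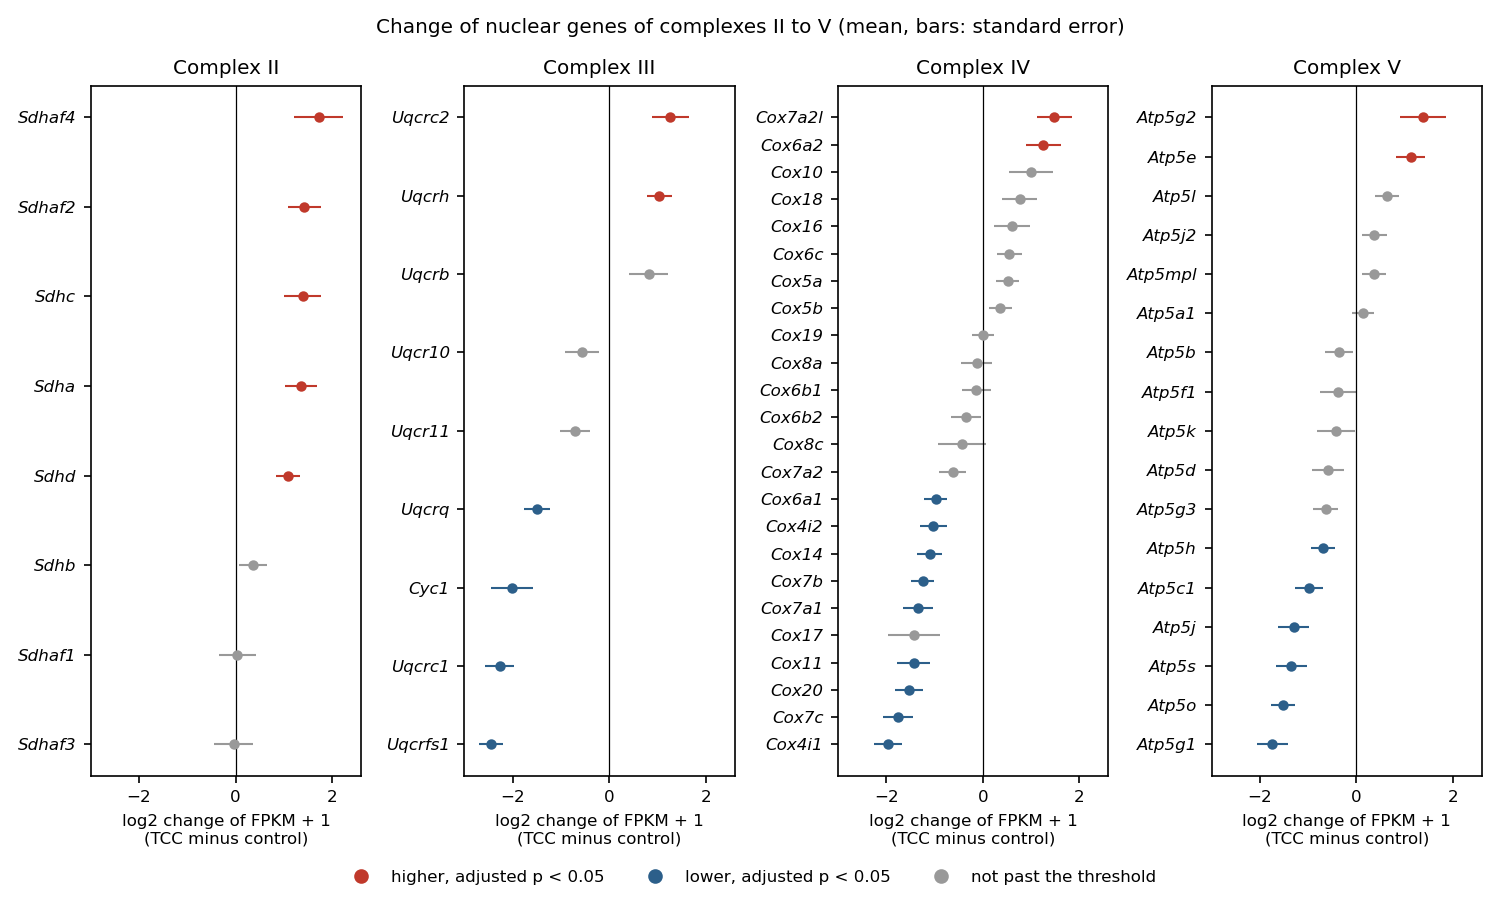
Difference between TCC and control libraries for each tested member on the log2(FPKM + 1) scale, with its standard error, grouped by complex; colours mark members higher, lower or not past the threshold. Complex II spans -0.04 to 1.72, complex III -2.45 to 1.26, complex IV -1.97 to 1.48 and complex V -1.74 to 1.38.

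In complex II, the catalytic subunit gene Sdha, both membrane anchor genes and 2 of 4 assembly factor genes rose, and all TCC libraries lay above all controls for each of these 5. Sdha encodes the flavoprotein that oxidizes succinate (ENSMUSG00000021577.7, chr13:74322254-74350280, minus strand). It had 48.9, 44.8, 54.0 and 52.0 FPKM in TCC libraries, against 27.2, 28.7, 9.09 and 17.3 FPKM in controls, libraries 1 to 4 of each group in this and all later lists. All TCC values were above all controls, and controls 1 and 2 were above controls 3 and 4. The log2 change was 1.36 ± 0.34 (SE, limma adjusted p = 0.00754).

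The anchors SDHC and SDHD hold the enzyme in the membrane and bind haem and ubiquinone. Sdhc (ENSMUSG00000058076.6, chr1:171127165-171150603, minus strand) had 27.7, 10.2, 20.2 and 19.0 FPKM in TCC libraries, against 9.37, 9.98, 3.53 and 4.65 FPKM in controls. The lowest TCC library, number 2, was only just above the highest control, and without controls 3 and 4 the log2 change was 0.85 (limma adjusted p = 0.121), against 1.39 ± 0.38 (SE, limma adjusted p = 0.0118) with all libraries. Sdhd (ENSMUSG00000000171.4, chr9:50596357-50603812, minus strand) had 26.0, 14.6, 21.5 and 20.3 FPKM in TCC libraries, against 9.62, 9.76, 8.39 and 8.48 FPKM in controls. Its controls lay close together and below every TCC library, with a log2 change of 1.08 ± 0.25 (SE, limma adjusted p = 0.00494), and it stayed past the threshold with either pair of controls.

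Sdhb, the gene of the iron-sulfur subunit that carries electrons from SDHA to the anchors, did not pass the threshold. It had 15.4, 8.33, 13.0 and 14.7 FPKM in TCC libraries, against 11.6, 12.6, 7.83 and 7.02 FPKM in controls, so the groups overlapped (log2 change 0.37, limma adjusted p = 0.331). After quantile normalization it passed (0.76, limma adjusted p = 0.0361). Among subunits, Sdha was the most abundant in both groups, at 49.9 ± 4.02 FPKM in TCC libraries, against 20.6 ± 9.18 FPKM in controls (SD, n = 4 each). FPKM is per length, and the span between the highest and the lowest of the 4 subunits was 3.88-fold with TCC and 2.99-fold in controls.

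Of the 4 assembly factor genes, 2 were called higher and 2 did not pass, and no test was made between them. Sdhaf2, which attaches the flavin to SDHA, had 14.1, 9.96, 13.9 and 11.7 FPKM in TCC libraries, against 5.48, 7.47, 2.65 and 2.04 FPKM in controls. Sdhaf4, which stabilizes flavinated SDHA before it meets SDHB, had 205, 113, 174 and 166 FPKM in TCC libraries, against 93.5, 104, 18.4 and 29.0 FPKM in controls. Both rose, by log2 changes of 1.42 and 1.72 (limma adjusted p = 0.00617 and 0.0167), and Sdhaf4 was the most abundant complex II gene in the TCC libraries. Without controls 3 and 4, whose Sdhaf4 values were the lowest, its log2 change was 0.70 (limma adjusted p = 0.0981). Sdhaf1 and Sdhaf3, which serve the maturation of SDHB, had log2 changes of 0.04 and -0.04 (limma adjusted p = 0.949 and 0.947). These depended on the controls, at 0.61 and -0.77 without controls 1 and 2, and -0.54 and 0.68 without controls 3 and 4. Their groups overlapped: Sdhaf1 had 11.2, 5.52, 9.72 and 10.4 FPKM in TCC libraries, against 17.7, 10.1, 4.54 and 6.62 FPKM in controls. Sdhaf3 had 6.04, 5.63, 8.77 and 9.97 FPKM in TCC libraries, against 3.28, 5.40, 14.2 and 12.5 FPKM in controls. Sdhb, Sdhaf1 and Sdhaf3 were thus the 3 members of complex II that did not pass. Sdhaf1 shares 69.6% of its exon bases with E130208F15Rik on the opposite strand, and a strand setting of the counting is not stated.

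**Figure D2:**
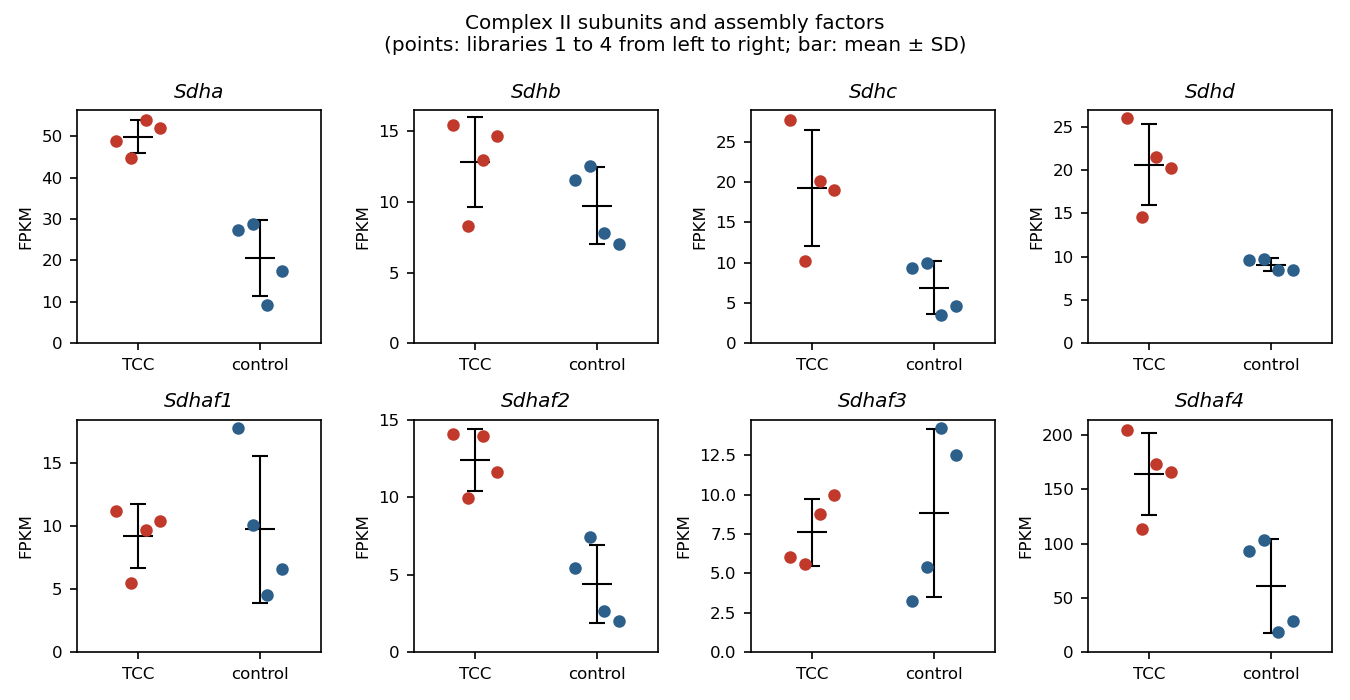
FPKM of the complex II members in each library, TCC on the left and control on the right of each panel; points are libraries 1 to 4 from left to right and bars give the mean ± SD. In Sdha, Sdhc, Sdhd, Sdhaf2 and Sdhaf4 every TCC point lies above every control point, and in Sdhb, Sdhaf1 and Sdhaf3 the groups overlap.

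The share of complex II in the members' summed FPKM was 8.21, 7.32, 7.30 and 6.48% in TCC libraries and 4.38, 4.11, 1.46 and 1.81% in controls. The groups did not overlap, and the sums were 296 ± 60.0 FPKM with TCC and 130.4 ± 61.0 FPKM in controls (SD, n = 4 each). Sdhaf4 alone held 165.6 of 304 FPKM in TCC library 4 and 29.0 of 87.6 FPKM in control 4. Without controls 3 and 4, 3 complex II members stayed higher and the complex's median was 0.76. Without controls 1 and 2, 5 members were higher and the median was 1.54.

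Sequences around the start of Sdha and Sdhd are shown because both genes rose with either pair of controls and both hold letters of the NRF1 motif, a site of a regulator of respiratory genes. The windows run from 100 bases before to 25 bases after the gene start (RefSeq, GRCm38.p6, minus strand, chr13:74350216-74350340 and chr9:50603825-50603949). Capitals mark the NRF1 motif, 10 bases with the sixth left free, or CCGGAAG (ETS factors such as GABP), on either strand.
Sdha: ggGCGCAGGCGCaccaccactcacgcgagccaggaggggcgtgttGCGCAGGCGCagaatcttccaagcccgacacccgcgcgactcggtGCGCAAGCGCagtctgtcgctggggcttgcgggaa
Sdhd: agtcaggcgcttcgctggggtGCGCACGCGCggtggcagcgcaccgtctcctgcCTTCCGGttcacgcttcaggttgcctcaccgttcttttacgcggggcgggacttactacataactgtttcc
Sdha holds the NRF1 letters at 3 places of this window, and Sdhd holds the letters of NRF1 and of ETS at 1 place each. In the longer promoters counted below, Sdhaf4, which rose, and Sdhaf3, which did not pass, also hold the NRF1 letters. Sdhaf2, which rose with either pair of controls, does not. A match is a description of letters and not a bound site.

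In complex III, both electron-carrying subunits encoded in the nucleus and core protein 1 fell, while core protein 2 and the hinge protein rose. Uqcrfs1, the gene of the Rieske iron-sulfur protein (ENSMUSG00000038462.3, chr13:30540308-30545362, minus strand), had 10.3, 6.45, 9.51 and 8.36 FPKM in TCC libraries, against 48.9, 48.6, 47.2 and 60.1 FPKM in controls. The control mean was 5.92 times the TCC mean, and the groups were far apart. The log2 change of -2.45 ± 0.24 (SE, limma adjusted p = 5.43e-05) was the deepest of any tested member with a pseudocount of 1. With a pseudocount of 0.1 that of Uqcrc1 was deeper, at -2.80, against -2.57 for Uqcrfs1. The size for Uqcrfs1 was similar with either pair of controls, at -2.51 without controls 1 and 2 and -2.38 without controls 3 and 4.

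Cyc1 encodes cytochrome c1, which receives electrons from the Rieske protein (ENSMUSG00000022551.7, chr15:76343523-76346260, plus strand). It had 6.14, 1.04, 3.60 and 3.20 FPKM in TCC libraries, against 26.3, 23.6, 8.71 and 10.5 FPKM in controls. Every TCC library was below every control, but here controls 1 and 2 were the higher pair, and the log2 change was -2.01 ± 0.44 (SE, limma adjusted p = 0.00371). Uqcrc1, the gene of core protein 1, had 1.66, 1.49, 1.38 and 1.42 FPKM in TCC libraries, against 10.3, 6.00, 15.8 and 14.4 FPKM in controls. The 4 TCC values lay close together and below the lowest control. The control mean was 7.81 times the TCC mean, for a log2 change of -2.27 (limma adjusted p = 0.000192).

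Uqcrc2, the gene of the partner core protein, moved the other way. It had 53.0, 15.1, 54.5 and 53.1 FPKM in TCC libraries, against 16.2, 15.2, 16.9 and 14.7 FPKM in controls. TCC libraries 1, 3 and 4 were more than 3 times the controls, and TCC library 2 lay among the controls, so the groups overlapped. The log2 change was 1.26 ± 0.38 (SE, limma adjusted p = 0.0207) with all libraries and 1.70 without TCC library 2 (limma adjusted p = 0.000307). Without either pair of controls it missed the threshold (limma adjusted p = 0.0662 without 1 and 2, 0.0958 without 3 and 4). It also did so without TCC library 1, 3 or 4.

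Among the smaller subunits, Uqcrh, the gene of the acidic hinge protein next to cytochrome c1, had 133, 96.5, 120.1 and 124 FPKM in TCC libraries, against 56.1, 81.9, 44.1 and 51.6 FPKM in controls. All TCC libraries were above all controls (log2 change 1.03, limma adjusted p = 0.00778). Its adjusted p was 0.0516 without controls 3 and 4, just above the threshold of 0.05. Uqcrq, the gene of a small accessory subunit, had 23.9, 17.0, 14.4 and 14.8 FPKM in TCC libraries, against 42.9, 53.7, 41.7 and 67.0 FPKM in controls. It fell, with a log2 change of -1.50 (limma adjusted p = 0.00106), and the groups did not overlap. Uqcr11, Uqcr10 and Uqcrb did not pass the threshold, with log2 changes of -0.71, -0.57 and 0.82. Uqcrb passed in some alternatives, among them quantile normalization (limma adjusted p = 0.0478) and leaving out controls 3 and 4 (0.0116). Uqcr10 and Uqcr11 passed as lower without controls 1 and 2 (limma adjusted p = 0.0227 and 0.0168), and Uqcr11 also without control 1 (0.0180). Uqcr10 had 40.6, 24.9, 44.6 and 54.3 FPKM in TCC libraries, against 32.7, 53.7, 80.0 and 87.0 FPKM in controls, a wide overlap. Within complex III, the highest subunit was 79.5 times the lowest in mean FPKM with TCC (Uqcrh over Uqcrc1) and 5.45 times in controls (Uqcr10 over Uqcrc1).

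The windows of Uqcrfs1, which fell, and Uqcrh, which rose, are shown as a pair of complex III genes with opposite change (chr13:30545292-30545416 and chr4:116075046-116075170, both minus strand, marked as above).
Uqcrfs1: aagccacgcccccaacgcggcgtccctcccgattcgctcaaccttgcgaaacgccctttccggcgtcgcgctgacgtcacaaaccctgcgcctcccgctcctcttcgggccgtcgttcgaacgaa
Uqcrh: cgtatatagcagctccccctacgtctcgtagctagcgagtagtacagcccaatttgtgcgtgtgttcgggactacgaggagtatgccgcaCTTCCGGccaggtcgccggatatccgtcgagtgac
Uqcrh holds the ETS letters, on the reverse strand, and Uqcrfs1 holds neither motif in this window. The windows of Cox6a1, Atp5j and Atp5o, which fell and are not printed, do hold letters: ETS in Cox6a1 and Atp5j, NRF1 in Atp5o. Uqcrc1, also lower, holds the NRF1 letters in the longer promoter counted below. The relation of the letters to the direction of change was not tested.

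**Figure D3:**
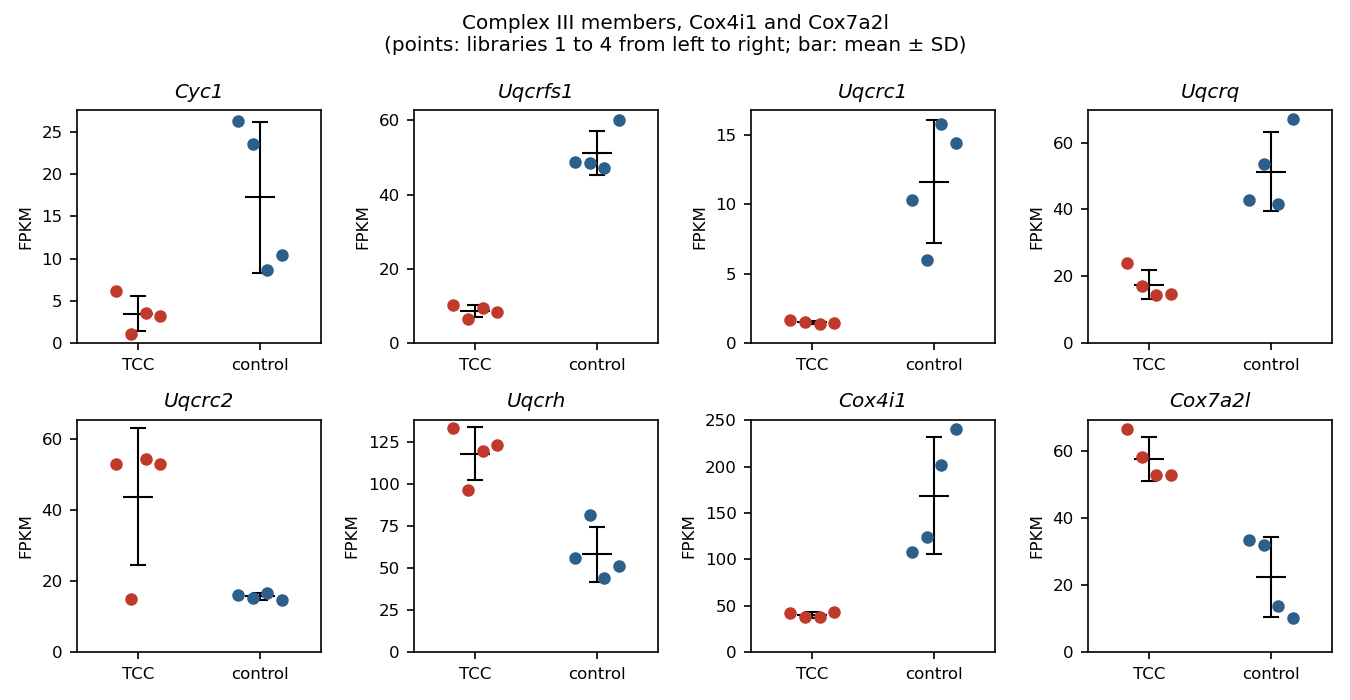
FPKM per library of 6 complex III genes and of Cox4i1 and Cox7a2l from complex IV, TCC left of control, with points for libraries 1 to 4 and the mean ± SD. Cyc1, Uqcrfs1, Uqcrc1, Uqcrq and Cox4i1 lie lower with TCC, Uqcrh and Cox7a2l lie higher, and TCC library 2 of Uqcrc2 lies among its controls.

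In complex IV, 4 of the 10 common subunit genes fell and 0 rose (0 also at an unadjusted p under 0.05, limma), where 30.8% of all tested genes were lower. After median-of-ratios scaling 2 of the 10 were higher, Cox5a and Cox6c. Cox4i1, the gene of the common form of subunit 4, which takes part in the regulation of the enzyme by ATP (ENSMUSG00000031818.5, chr8:120668222-120674207, plus strand), had 42.0, 37.6, 37.7 and 43.2 FPKM in TCC libraries, against 108, 124, 202 and 240.3 FPKM in controls. TCC values were tight and below every control, and controls 3 and 4 were above controls 1 and 2. The log2 change was -1.97 ± 0.29 (SE, limma adjusted p = 0.000352).

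Cox7c had 8.57, 6.08, 5.87 and 12.0 FPKM in TCC libraries, against 18.0, 30.7, 34.8 and 35.8 FPKM in controls. Cox7b had 35.7, 38.1, 35.7 and 42.3 FPKM in TCC libraries, against 74.2, 83.8, 110.3 and 101 FPKM in controls. Cox6a1, the gene of the common form of subunit 6A, had 141, 92.7, 126 and 127 FPKM in TCC libraries, against 199, 242, 263 and 251 FPKM in controls. These 3 genes of small membrane subunits fell, by log2 changes of -1.76, -1.25 and -0.97 (limma adjusted p = 0.00101, 0.00143 and 0.00697), and for each the groups did not overlap and the call held with either pair of controls.

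The most abundant complex IV genes did not pass the threshold with the values as deposited. Cox8a, the highest member of all, had 691, 354, 815 and 851 FPKM in TCC libraries, against 823, 825, 609 and 586 FPKM in controls. Cox5a, which encodes a matrix-facing subunit, had 428, 373, 417 and 499.9 FPKM in TCC libraries, against 256, 297, 288 and 366 FPKM in controls. Cox5b, the gene of the zinc-binding subunit, had 204, 185, 221 and 274 FPKM in TCC libraries, against 143, 158, 195 and 188 FPKM in controls. All TCC values of Cox5a were above all controls, yet the change of 0.51 had a limma adjusted p of 0.102; for Cox5b it was 0.37 (limma adjusted p = 0.247) with overlapping groups. Cox8a overlapped widely (-0.13, limma adjusted p = 0.779), and its lowest value was in TCC library 2. Cox6c, Cox7a2 and Cox6b1 had log2 changes of 0.55, -0.63 and -0.14 and did not pass either. Cox7a2 passed as lower after quantile normalization (limma adjusted p = 0.0467), without control 1 (0.0338) and without controls 1 and 2 (0.0218). After median-of-ratios scaling Cox5a was at 0.82 and Cox6c at 0.85 (limma adjusted p = 0.0200 and 0.0179), and both also passed with library weights and without TCC library 2. With the values as deposited, the split between 4 falling and 6 other common subunits thus ran within 1 enzyme. Mean FPKM ran from 8.12 (Cox7c) to 678 (Cox8a) in TCC libraries and from 29.8 (Cox7c) to 711 (Cox8a) in controls.

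Tissue forms of complex IV subunits replace the common ones in muscle, lung or testis. Cox6b2, the testis form of subunit 6B, was the main form here. It had 267, 126, 294 and 346 FPKM in TCC libraries, against 313, 328, 306 and 286 FPKM in controls. The common form Cox6b1 had 105, 65.7, 93.9 and 104 FPKM in TCC libraries, against 61.8, 94.2, 143 and 119 FPKM in controls. Cox6b2 held 65.8 to 76.9% of the summed FPKM of the pair in TCC libraries and 68.2 to 83.5% in controls, so the shares overlapped, and neither gene passed the threshold (-0.34 for Cox6b2, limma adjusted p = 0.410).

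Cox6a2, the muscle form of subunit 6A, rose at low levels. It had 10.3, 4.17, 11.1 and 9.47 FPKM in TCC libraries, against 4.97, 3.68, 1.67 and 2.04 FPKM in controls. TCC library 2 lay within the controls, and its call was lost without controls 3 and 4 (log2 change 1.25, limma adjusted p = 0.0147, and 0.148 without them). Its share of subunit 6A transcripts was 4.30 to 8.05% in TCC libraries and 0.632 to 2.43% in controls. Cox4i2, the lung form of subunit 4, had 0.952, 0.191, 0.327 and 1.09 FPKM in TCC libraries, against 3.17, 1.28, 1.76 and 3.17 FPKM in controls. Cox7a1, the muscle form of subunit 7A, had 0.488, 0, 1.49 and 1.01 FPKM in TCC libraries, against 1.96, 4.60, 2.86 and 3.79 FPKM in controls. Both fell, with log2 changes of -1.02 and -1.34 (limma adjusted p = 0.0126 and 0.00539), and took at most 2.84 and 2.04% of their families in any library. Cox8c did not pass (-0.44), Cox7b2 was listed at 0 in all TCC libraries and reached 2.32 FPKM in control 4, and Cox8b was listed at 0 in all 8 libraries; the last 2 were below the filter.

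Cox7a2l, a relative of subunit 7A that joins complexes III and IV into supercomplexes (ENSMUSG00000024248.7, chr17:83501918-83517330, minus strand), rose. It had 66.6, 58.2, 52.9 and 52.8 FPKM in TCC libraries, against 33.4, 31.9, 13.9 and 10.4 FPKM in controls. The groups did not overlap, and the log2 change of 1.48 ± 0.37 (SE, limma adjusted p = 0.00710) stayed past the threshold with either pair of controls. Cox7a2, the common subunit form, had 116, 89.2, 139.6 and 142 FPKM in TCC libraries, against 130.5, 189, 211 and 227 FPKM in controls (-0.63, limma adjusted p = 0.0834). As a share of the 3 subunit 7A genes, Cox7a2l held 27.0 to 39.5% in TCC libraries and 4.29 to 20.2% in controls.

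Of 9 complex IV assembly factor genes, 8 were tested, 3 fell and 0 rose (0 also at an unadjusted p under 0.05, limma). The 37.5% that fell was near the 30.8% of all tested genes. After median-of-ratios scaling 2 of the 8 were higher, Cox10 and Cox18. Cox11, which delivers copper to the catalytic core, had 4.47, 2.94, 5.04 and 4.57 FPKM in TCC libraries, against 20.6, 18.6, 9.53 and 7.67 FPKM in controls. Cox14, which acts in the synthesis and assembly of subunit 1, had 29.3, 20.9, 25.6 and 27.7 FPKM in TCC libraries, against 40.4, 57.6, 59.9 and 72.4 FPKM in controls. Cox20, a chaperone of subunit 2, had 2.21, 1.18, 0.561 and 1.08 FPKM in TCC libraries, against 3.48, 7.16, 6.43 and 4.67 FPKM in controls. For each of the 3 the groups did not overlap, and the log2 changes were -1.43, -1.10 and -1.52 (limma adjusted p = 0.00532, 0.00506 and 0.00165). Cox20 shares 91.1% of its exon bases with Hnrnpu and Cox11 48.3% with Tom1l1, both on the opposite strand, so reads of these pairs cannot be told apart unless the counting used strand.

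The other assembly factors did not pass with the values as deposited. Cox17, the copper chaperone that feeds the pathway, had 3.30, 7.54, 4.69 and 5.60 FPKM in TCC libraries, against 5.09, 9.04, 41.4 and 27.0 FPKM in controls. Cox10, the haem O synthase, had 117, 86.0, 91.0 and 91.6 FPKM in TCC libraries, against 102, 83.9, 27.5 and 21.0 FPKM in controls. Cox18, an insertase of subunit 2, had 70.6, 26.0, 51.0 and 46.0 FPKM in TCC libraries, against 36.7, 37.3, 16.8 and 21.3 FPKM in controls. In all 3 the control pairs were far apart: controls 1 and 2 lay with the TCC libraries for Cox17 and Cox10, and 3 and 4 lay away from them, so the changes of -1.43 and 1.00 rested on controls 3 and 4 (limma adjusted p = 0.0513 and 0.102). Without controls 3 and 4 they were -0.36 and 0.05. After median-of-ratios scaling Cox10 and Cox18 passed (limma adjusted p = 0.0245 and 0.0218). Cox18, at 0.76 as deposited, also passed after quantile normalization (limma adjusted p = 0.0361) and with library weights (0.0259). Cox17 passed in some alternatives, among them library weights (limma adjusted p = 0.0169) and leaving out controls 1 and 2 (0.000462). Cox16 and Cox19 had log2 changes of 0.59 and 0.00, and Cox16 shares 56.8% of its exon bases with the readthrough gene Gm20498. Cox15, which makes haem A, was below the filter, at 0.0907 to 0.449 FPKM in TCC libraries and 0.108 to 0.477 in controls.

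In complex V, 3 of 4 genes of the peripheral stalk fell, while of the 5 genes of the catalytic head 1 fell and 1 rose. Over all tested genes, 30.8% were lower and 11.3% higher. The stalk count depended on the controls, with 1 lower gene without controls 3 and 4 and 4 without controls 1 and 2. No test was made between stalk and head. In the head (F1), Atp5b, which encodes the catalytic beta subunit (ENSMUSG00000025393.5, chr10:128083273-128090391, plus strand), had 254, 109, 221 and 212 FPKM in TCC libraries, against 253, 219.6, 249 and 256 FPKM in controls. Atp5a1, the gene of the alpha subunit, had 63.1, 47.2, 47.4 and 50.8 FPKM in TCC libraries, against 42.9, 44.4, 56.3 and 46.4 FPKM in controls. For both the groups overlapped, with log2 changes of -0.36 and 0.13 (limma adjusted p = 0.348 and 0.683), and the low value of Atp5b in TCC library 2 stood below all others.

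Atp5c1, the gene of the gamma subunit, the rotating shaft, had 94.3, 37.9, 64.0 and 68.5 FPKM in TCC libraries, against 116, 105, 151 and 135 FPKM in controls. It fell without overlap (log2 change -0.98, limma adjusted p = 0.0202), but its adjusted p was 0.126 without controls 3 and 4 and 0.0875 after median-of-ratios scaling, and it missed the threshold without control 3 (0.0587) or control 4 (0.0503). Atp5e, the gene of the epsilon subunit at the foot of the shaft, had 41.7, 27.4, 36.4 and 46.6 FPKM in TCC libraries, against 22.9, 21.8, 13.7 and 10.9 FPKM in controls. It rose without overlap (log2 change 1.13, limma adjusted p = 0.0107), with an adjusted p of 0.0811 without controls 3 and 4. Atp5d, the delta subunit gene, did not pass (-0.59, limma adjusted p = 0.187). It passed as lower without control 3 (limma adjusted p = 0.0367) and without controls 3 and 4 (0.00706).

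Of the 4 genes of the peripheral stalk, which holds the head still, 3 fell. Atp5o encodes OSCP, the link between stalk and head (ENSMUSG00000022956.4, chr16:91925214-91931687, minus strand). It had 15.1, 13.4, 16.3 and 18.6 FPKM in TCC libraries, against 37.8, 40.1, 51.3 and 63.4 FPKM in controls. TCC libraries were tight and below every control, with a log2 change of -1.52 ± 0.25 (SE, limma adjusted p = 0.000709). A further annotated Atp5o identifier shares exon bases with it and is not used here.

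Atp5j, the gene of coupling factor 6, had 19.8, 16.0, 24.7 and 14.2 FPKM in TCC libraries, against 30.6, 36.6, 63.4 and 66.0 FPKM in controls. It fell without overlap (log2 change -1.30, limma adjusted p = 0.00627; 0.0549 without controls 3 and 4). Atp5h, the gene of subunit d, had 63.9, 48.3, 50.8 and 45.9 FPKM in TCC libraries, against 61.4, 83.9, 89.4 and 109 FPKM in controls. Its groups overlapped and its call was the weakest of all, with a log2 change of -0.69 (limma adjusted p = 0.0477), lost in 12 of 20 alternatives. Among these were median-of-ratios scaling (0.270), quantile normalization (0.0980) and leaving out any library but control 1. Atp5f1, the gene of subunit b, did not pass (-0.37), and its sign depended on the controls, at -0.98 without 1 and 2 and 0.23 without 3 and 4. Atp5j lies head to head with Gabpa, a regulator of respiratory genes, and shares 12.7% of its exon bases with it on the opposite strand. Gabpa had 12.7, 12.9, 17.5 and 13.2 FPKM in TCC libraries, against 67.3, 57.6, 107.2 and 129.5 FPKM in controls. Reads of the shared bases cannot be told apart unless the counting used strand.

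None of the 4 small membrane subunit genes passed the threshold with the values as deposited (limma; 1, Atp5l, was higher at an unadjusted p under 0.05), and Atp5l passed after either scaling. Atp5l, Atp5mpl, Atp5j2 and Atp5k had log2 changes of 0.62, 0.37, 0.37 and -0.42. Atp5k passed as lower without controls 1 and 2 (limma adjusted p = 0.0398). Atp5l had 35.6, 42.4, 35.4 and 38.1 FPKM in TCC libraries, against 23.0, 34.6, 20.0 and 21.4 FPKM in controls, with all TCC libraries above all controls (limma adjusted p = 0.0644). The adjusted p was 0.00947 after median-of-ratios scaling, 0.0158 after quantile normalization, 0.0306 without control 2 and 0.0119 without controls 1 and 2. Atp5s, which encodes coupling factor B, had 1.50, 0.602, 0.850 and 0.784 FPKM in TCC libraries, against 3.05, 1.78, 5.72 and 6.34 FPKM in controls. It fell at low levels without overlap (log2 change -1.35, limma adjusted p = 0.00606).

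The c subunit forms the rotating ring of the membrane part, and the mature protein is encoded by 3 genes that differ in their import sequences. The 3 genes changed apart. Atp5g1 (ENSMUSG00000006057.8, chr11:96068852-96075670, minus strand) had 137, 76.5, 111 and 110.1 FPKM in TCC libraries, against 228, 289, 479 and 520.3 FPKM in controls. Atp5g2 (ENSMUSG00000062683.4, chr15:102662864-102672352, minus strand) had 52.7, 31.5, 35.8 and 35.0 FPKM in TCC libraries, against 33.1, 24.7, 5.76 and 7.54 FPKM in controls. Atp5g3 (ENSMUSG00000018770.3, chr2:73908447-73911326, minus strand) had 16.9, 21.4, 13.7 and 15.3 FPKM in TCC libraries, against 22.3, 30.3, 21.1 and 33.3 FPKM in controls. Atp5g1 fell without overlap (log2 change -1.74 ± 0.32, SE, limma adjusted p = 0.00129), and its controls 3 and 4 were the highest. Atp5g2 rose (1.38 ± 0.48, SE, limma adjusted p = 0.0379) with TCC library 2 just below control 1, and lost its call in 8 of 20 alternatives, among them leaving out any single TCC library, control 3 or control 4. Without controls 3 and 4 its change was 0.40 (limma adjusted p = 0.338). Atp5g3 did not pass (-0.63, limma adjusted p = 0.0696). It passed as lower with library weights (limma adjusted p = 0.00892) and without TCC library 2 (0.0279).

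As a share of the summed FPKM of the 3 genes, Atp5g1 held 66.2, 59.1, 69.3 and 68.6% in TCC libraries and 80.5, 84.0, 94.7 and 92.7% in controls. Atp5g2 held 25.6, 24.4, 22.3 and 21.8% in TCC libraries and 11.7, 7.17, 1.14 and 1.34% in controls. Neither pair of shares overlapped between the groups. The difference was -22.2 percentage points for Atp5g1 (65.8 ± 4.65% with TCC, 88.0 ± 6.82% in controls, SD, n = 4 each) and 18.2 for Atp5g2. In an exact permutation test (two-sided, 70 assignments) each had p = 0.0286, the lowest value possible, and 0.0429 adjusted over the 3 shares. The shares sum to 100% and are not independent. They come from the same values as the limma calls above, so these p-values are no separate support. Atp5g3 differed by 3.99 points (exact p = 0.0857). Weighting each gene by its exon length, as a share of fragments, gave -11.1 points for Atp5g1 and 8.20 for Atp5g2. The plot of c subunit genes shows Atp5g1 as the largest share in every library.

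**Figure D4:**
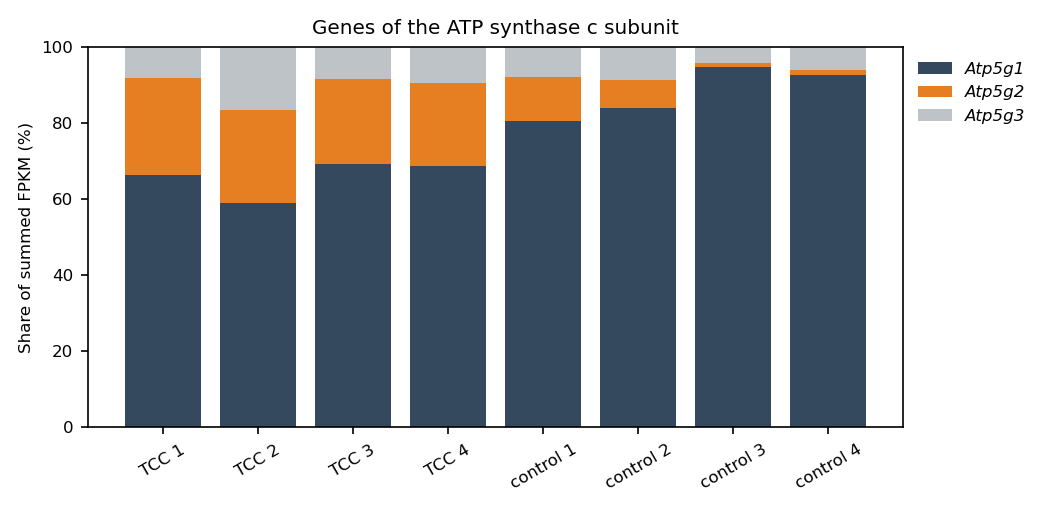
Share of Atp5g1, Atp5g2 and Atp5g3 in their summed FPKM (%, stacked bars) in each library, the 4 TCC libraries left of the 4 controls. Atp5g1 holds 59.1 to 69.3% in TCC libraries and 80.5 to 94.7% in controls, and Atp5g2 holds 21.8 to 25.6% and 1.14 to 11.7%.

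The windows around the 3 RefSeq starts are shown because the genes make the same mature protein and changed apart (chr11:96075607-96075731, chr15:102671023-102671147 and chr2:73911302-73911426, all minus strand, marked as above). The RefSeq start of Atp5g2 lies inside the GENCODE span given for that gene and not at its end.
Atp5g1: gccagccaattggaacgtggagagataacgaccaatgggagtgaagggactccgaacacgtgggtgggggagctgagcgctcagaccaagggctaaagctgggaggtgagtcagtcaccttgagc
Atp5g2: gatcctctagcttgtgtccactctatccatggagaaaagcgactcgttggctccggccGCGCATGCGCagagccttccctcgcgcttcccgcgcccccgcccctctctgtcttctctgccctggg
Atp5g3: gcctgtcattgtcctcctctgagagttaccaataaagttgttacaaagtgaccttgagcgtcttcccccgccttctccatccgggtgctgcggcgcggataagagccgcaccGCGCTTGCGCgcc
Atp5g2 and Atp5g3 hold the NRF1 letters in this window and Atp5g1 holds neither motif there.

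Promoters of 47 of the 61 members were found in the RefSeq table, each from 250 bases before to 50 bases after the start. The ETS letters CCGGAAG were in 20 of these genes (42.6%), in 20.6% of 8765 tested genes with a promoter and in 9.93% of all 27025 genes of the table. The NRF1 letters were in 12 (25.5%), in 12.0% of tested genes and in 5.19% of all. The SP1 letters GGGCGGGG were in 11 (23.4%), in 35.8% of tested genes and in 19.6% of all. Of 2 forms of the YY1 motif, the longer was in 1 member, Cox10, and the shorter in 0. Both strands were read, and matches of the ETS, NRF1 and SP1 letters can share bases only at their ends. By call, the ETS letters were in 4 of 8 higher, 5 of 15 lower and 10 of 21 other members, and the NRF1 letters in 4, 5 and 3. Member genes were shorter than tested genes, with a median exon length of 1756 against 3768 bases, and lay on 19 chromosomes. Their median level was 31.7 FPKM, against 8.14 over all tested genes. In all, 22 members share exon bases with another gene, 4 of them at least 40%. How reads of near-identical copies were assigned is not stated: the copy Cox6c2 had 24.6, 15.1, 23.3 and 27.5 FPKM in TCC libraries, against 12.1, 17.1, 11.7 and 14.9 FPKM in controls, beside 245 FPKM with TCC and 167 in controls for Cox6c on average, and Uqcrh-ps1 averaged 2.13 ± 0.870 FPKM in TCC libraries, against 0.808 ± 0.302 FPKM in controls (SD, n = 4 each).

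Other genes of the same pathway gave the setting. Of 36 complex I subunit genes tested, 9 were higher and 13 lower (25% and 36.1%, beside 11.3% and 30.8% of all tested genes), with a median of -0.31. Ndufa8 had 30.5 ± 11.0 FPKM in TCC libraries, against 3.76 ± 1.21 FPKM in controls (SD, n = 4 each), a log2 change of 2.69, and Ndufa2 and Ndufs8 had changes of -2.44 and -2.51 (limma adjusted p = 0.000134, 0.000139 and 0.000354). Complex I thus went both ways as the members did. Of the 13 mitochondrially encoded genes, 7 were lower and 0 higher (0 at an unadjusted p under 0.05, limma), with a median of -1.004. The complex III gene mt-Cytb had 5547 ± 1204 FPKM in TCC libraries, against 17338 ± 5206 FPKM in controls (SD, n = 4 each; log2 change -1.62, limma adjusted p = 0.00166). The complex V genes mt-Atp6 and mt-Atp8 changed by -1.004 and -1.24 (limma adjusted p = 0.0213 and 0.0222). The complex IV genes mt-Co1, mt-Co2 and mt-Co3 did not pass (-0.12, -0.55 and -0.37).

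Cytochrome c, the carrier between complexes III and IV, had a lower transcript level of its somatic gene Cycs (-0.76, limma adjusted p = 0.0403) and a higher one of its testis gene Cyct (1.16, limma adjusted p = 0.00763). Hccs, which attaches haem to cytochromes c and c1, fell with 8.28 ± 1.05 FPKM in TCC libraries, against 42.1 ± 7.18 FPKM in controls (SD, n = 4 each; log2 change -2.21, limma adjusted p = 7.83e-05). Cyc1, the nuclear partner in complex III, is given above. Of 26 tested assembly factors outside the symbol rule, 6 were higher and 9 lower (23.1% and 34.6%). The copper proteins Sco1 and Sco2 changed by -1.91 and -1.73, and the complex III factor Uqcc3 by -4.01 (limma adjusted p = 0.000209, 0.000142 and 0.000222). Of the complex V genes outside the rule, Atpif1, the gene of the inhibitor of ATP hydrolysis, fell with a log2 change of -1.53, and Usmg5, the gene of a small membrane subunit, with -1.98 (limma adjusted p = 0.000439 and 0.000567). Tmem70, an assembly factor of complex V, fell too (-0.84, limma adjusted p = 0.0365), while Fmc1, another, rose (1.11, limma adjusted p = 0.0285). The assembly factor genes Atpaf1 and Atpaf2 did not pass (0.47 and -0.36).

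Of 12 tested regulators of mitochondrial genes, 1 was higher and 5 lower. These 8.33% and 41.7% stand beside 11.3% and 30.8% of all tested genes, so the counts are near the background. Gabpa, which binds ETS sites, had 14.1 ± 2.30 FPKM in TCC libraries, against 90.4 ± 33.7 FPKM in controls, and its partner Gabpb2 had 1.44 ± 0.469 FPKM in TCC libraries, against 14.9 ± 4.31 FPKM in controls (SD, n = 4 each). Both fell, with log2 changes of -2.54 and -2.68 (limma adjusted p = 0.000113 and 6.89e-05), as did the coactivator Pprc1 (-1.76, limma adjusted p = 0.000864). Nrf1, the factor of the NRF1 motif, did not pass (-0.29, limma adjusted p = 0.439). The higher gene was Tfb1m, a mitochondrial rRNA methyltransferase gene (1.54, limma adjusted p = 0.00106). The relation of these regulators to the members was not tested.

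The pair of controls set the size of many changes. Of the 11 higher members, 10 had controls 1 and 2 both above 3 and 4, as had 78.5% of all higher genes, so controls 1 and 2 were nearer to TCC. Of the 19 lower members, 12 had them below, as had 62.8% of all lower genes, 2 had them above and 5 were mixed. Against either pair alone, 4 higher members (Sdha, Sdhd, Sdhaf2 and Cox7a2l) and 15 lower ones stayed past the threshold. The 15 were Cyc1, Uqcrfs1, Uqcrc1 and Uqcrq of complex III, Cox4i1, Cox6a1, Cox7b, Cox7c, Cox7a1, Cox11, Cox14 and Cox20 of complex IV, and Atp5g1, Atp5o and Atp5s of complex V. Over all 12941 tested genes, 2838 were higher and 4213 lower without controls 1 and 2, and 695 and 3243 without controls 3 and 4. How many of all tested genes passed with both pairs was not counted. Signs were opposite with the pairs for 8 members, none of which was called with all libraries. Whether the pairs are a batch is not given in the labels, and their part in the results was not tested.

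**Figure D5:**
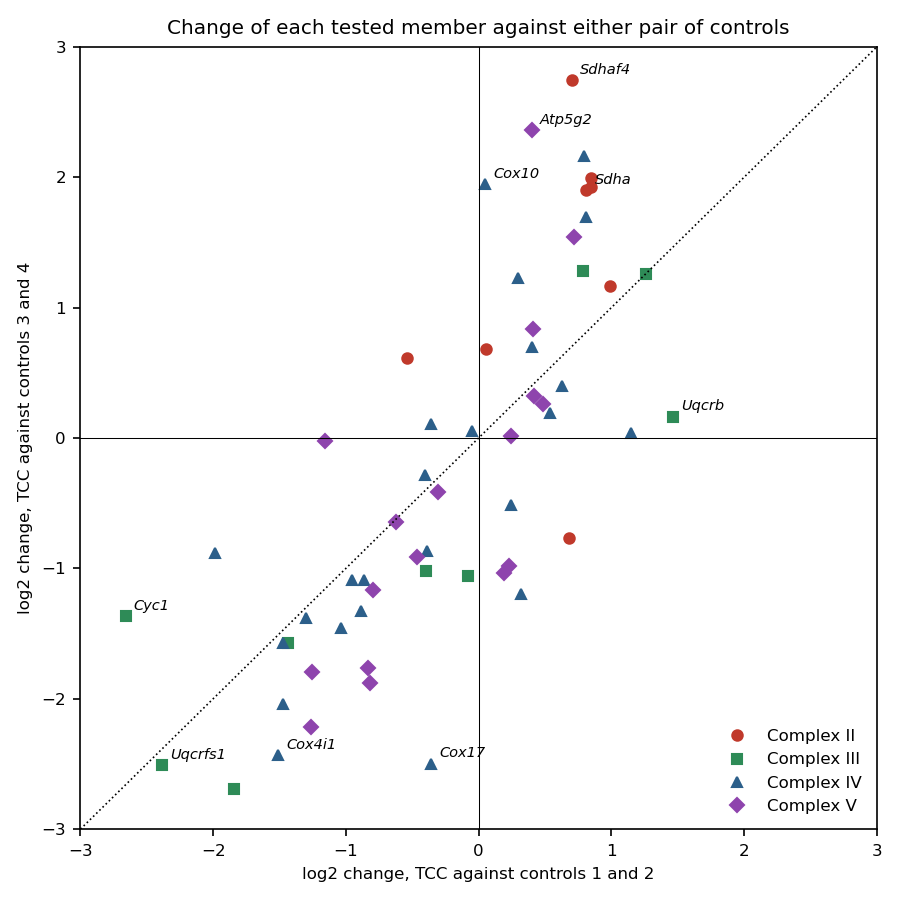
Log2 change of each tested member with TCC against controls 1 and 2 (horizontal axis) and against controls 3 and 4 (vertical axis), with a colour and mark for each complex and a dotted line of equal changes. The members called with all libraries lie where both changes have the same sign, and 8 other members have opposite signs.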

How the data were processed

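The deposited table held FPKM for 37310 genes in 8 libraries of polyadenylated RNA, from paired-end sequencing (150 bases, per the labels' protocols). The authors made these FPKM values. The submitters' processing notes list the tools STAR, StringTie, featureCounts and DESeq2 1.30.1 without saying what each did, and the build mm10. Fragment numbers, strand setting and annotation release are unstated, so counting error could not be computed and no count test was run. The labels' protocols describe more than 1 library preparation, and which applies here is unclear.

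Columns were assigned by name to samples and groups, and no libraries were identical. Identifiers were matched without version to GENCODE M21 (GRCm38, the assembly of mm10) for symbols and 1-based coordinates: 32620 (87.4%) matched, among them 61 of the 62 annotated genes under the symbol rule. A filter of 1 FPKM or more in 4 or more of the 8 libraries left 12941 genes, tested with limma 3.58.1 in R 4.3.3 (lmFit, eBayes with a trend, treatment as the only term, 6 residual degrees of freedom) on log2(FPKM + 1), with Benjamini-Hochberg adjustment over all of them and a threshold of 0.05. The fit was tested on simulated data. Shares of the c subunit genes were tested by an exact two-sided permutation of the libraries. Python 3.11.15 served for tables and figures (matplotlib 3.10.9, pandas 2.3.3, scipy 1.17.1, numpy 2.4.6).

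The members, gene lists and tests were chosen with earlier results of these data known, so no p over a list is given, apart from those of the c subunit shares. Values per library are printed for up to 6 members of each complex with the smallest adjusted p, the most abundant members, those called higher, catalytic and core subunits, paralogs and assembly factors, with the remaining members by change or range. Of the other pathway lists, up to 3 genes with the smallest adjusted p are named, and the further genes named there were chosen after their values were seen. Alternatives were other pseudocounts (0.1 and 5), no filter or 5 FPKM, 3 other scalings, a replicate block, library weights, eBayes without trend, and leaving out each library or each pair of controls. Promoter letters were counted in the RefSeq table for GRCm38.p6.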

Additional observations from a re-analysis of the deposited data

Results flagged for a closer look

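Of 122 groups of 4 libraries tested for a gap, 4 had 1 library far from the other 3, fewer than the 1 in 20 that chance gives. Uqcrc2 was at 15.1 FPKM in TCC library 2 and at 53.0 to 54.5 in the other TCC libraries. In that same library, Atp5g3 held 16.5% of the c subunit genes, against 8.20 to 9.51% in the other TCC libraries. Uqcrfs1 was at 60.1 FPKM in control 4 and at 47.2 to 48.9 in the other controls. Cox6c was at 219.2 FPKM in control 2 and at 145.5 to 151.4 in the other controls.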

How the results depend on the processing

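Of the 30 called members, 19 (4 higher and 15 lower) stayed past the threshold with the same sign in every alternative in which they were fitted. The same count was not made over all tested genes. The median change of all members was -0.047 with median-of-ratios scaling, -0.068 with library weights and -0.063 without controls 3 and 4. Without those controls 6 members were higher in all, 3 in complex II (median 0.76), 1 in complex III and 0 in complex V. Without controls 1 and 2, complex III had 1 higher member and a median of -1.06, complex IV had 4 and -0.69, and complex V had a median of -0.65. With no filter, complexes III and V had 1 higher member each, and with the stricter filter complex IV had 1. Median-of-ratios scaling gave complex IV 6 higher members and a median of -0.15, and complex V a median of -0.14. Library weights gave complex IV 5 and -0.068, and complex V -0.15. Quantile normalization gave complex III -0.36. Leaving out single libraries gave medians of -0.46 to -0.064 for all members, -0.61 to -0.087 for complex IV and -0.64 to -0.26 for complex V, and 1 to 3 higher members in complex III, 2 to 5 in complex IV and 1 to 3 in complex V. The share differences were -27.9 points for Atp5g1 and 22.3 for Atp5g2 without controls 1 and 2, and -16.4 and 14.1 without 3 and 4, each with an exact adjusted p of 0.1, which 2 controls cannot bring under the threshold. Weighted by exon length, the Atp5g3 share differed by 2.86 points with TCC higher (exact adjusted p = 0.0286). The cause of these shifts was not tested.

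Changes of uncalled members near 0 turned sign. With median-of-ratios scaling Cox8a was at 0.18, Cox6b1 at 0.17 and Sdhaf3 at 0.22. With quantile normalization Sdhaf3 was at 0.40 and Cox8c at 0.023. With library weights Cox8a was at 0.13, Sdhaf3 at 0.20, Cox8c at 0.093 and Cox19 at -0.075. Cox19 was at -0.0029 with a pseudocount of 5 and at -0.011 without mitochondrially encoded genes in the total. Without controls 1 and 2 Cox8a was at 0.10. Without controls 3 and 4 Atp5f1 was at 0.23, Cox6b1 at 0.25, Sdhaf3 at 0.68, Cox8c at 0.32, Cox19 at -0.046, Atp5k at 0.19 and Sdhaf1 at -0.54. Leaving out single libraries gave -0.38 to 0.23 for Sdhaf3, -0.14 to 0.12 for Cox19, -0.23 to 0.36 for Sdhaf1, -0.36 to 0.036 for Cox6b1 and -0.26 to 0.16 for Cox8a.

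Libraries with the same number correlated in their deviations from the group means at 0.338, 0.053, 0.095 and 0.104, and those with different numbers at -0.293 to 0.144. For controls 1, 3 and 4 the highest value was with the TCC library of the same number. The labels state no pairs, so the main fit did not take the numbers as pairs, and whether they are was not tested. With the replicate number as a block, 12 members were higher and 19 lower, Atp5h lost its call, Uqcrb and Cox17 gained one (limma adjusted p = 0.0423 and 0.0291), and over all genes 1544 were higher and 4061 lower, against 1466 and 3981 without the block. Depth is unknown here, which limits the reading of members near 1 FPKM, such as Cox4i2, Cox7a1 and Atp5s, and of any gene listed at 0. The small number of libraries and the spread between the control pairs limit the rest.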

Other observations

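Complex V took 25.2, 24.4, 22.7 and 22.5% of the members' summed FPKM in TCC libraries and 26.8, 26.4, 34.4 and 34.2% in controls, so the groups did not overlap, and controls 1 and 2 lay near the TCC libraries. Its sums were 957 ± 172 FPKM with TCC and 1393 ± 288 FPKM in controls (SD, n = 4 each). Atp5g1 alone held 110.1 of 1053 FPKM in TCC library 4 and 520.3 of 1660 FPKM in control 4. Without that gene the complex V shares of the groups would overlap. Complex IV took 59.4 to 64.1% with TCC and 56.4 to 62.5% in controls, and complex III 6.84 to 7.11% with TCC and 6.24 to 7.62% in controls, both with overlap.

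Among assembly factors outside the symbol rule, chosen after their values were seen, those for complex IV went both ways. Coa6, a factor of copper delivery to subunit 2, averaged 4.78 ± 0.823 FPKM in TCC libraries, against 22.3 ± 6.91 FPKM in controls (SD, n = 4 each; log2 change -1.97, limma adjusted p = 0.000302). Taco1, which activates translation of subunit 1, changed by -1.80 (limma adjusted p = 0.000341). Surf1, another complex IV assembly factor, rose by 1.19 (limma adjusted p = 0.00331), as did Lrpprc, which stabilizes mitochondrial mRNA (1.02, limma adjusted p = 0.00648). Cmc2, Higd2a and Coa4 were higher as well, by 0.88, 1.04 and 1.09 (limma adjusted p = 0.00988, 0.0310 and 0.0429). Coa7 was lower (-1.53, limma adjusted p = 0.0141), and Coa3, Coa5, Cmc1 and Higd1a did not pass. Bcs1l, which inserts the Rieske protein into complex III, changed by -1.21 (limma adjusted p = 0.00256), in the same direction as Uqcrfs1.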
